A study of Homo sapiens with 6 samples.

Results

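The 7 genes described are named members of speckles and paraspeckles, listed by a rule that uses no measured value. They are the long noncoding RNAs MALAT1 and NEAT1, and the genes of the nuclear RNA-binding proteins SFPQ, NONO, PSPC1, RBM14 and TARDBP. They are 7 of 58780 annotated genes and carry 99 of 206761 annotated transcripts. The data are 6 RNA-seq libraries of HCT116, an immortalized human colorectal carcinoma line. In 3 libraries the cells had been given auxin for 16 h, and in 3 they had been given DMSO, the solvent control, for a time the labels do not give. Auxin is a plant hormone that triggers degradation of a protein carrying a degron tag, and neither the tagged protein, nor the degron construct, nor whether the line is 1 clone is given in the labels. The libraries are numbered as biological replicates 1 to 3 in each group, and nothing says that they came from separate cultures, so the p-values measure the spread between these libraries only.

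Paraspeckles are nuclear bodies that form on the long isoform of NEAT1, at the edge of the nuclear speckles where MALAT1 accumulates. SFPQ, NONO and PSPC1 are the DBHS family, proteins that pair with one another and coat NEAT1, while RBM14 is a coactivator with a prion-like domain that paraspeckle assembly needs, and TARDBP encodes TDP-43, which binds UG-rich RNA. NEAT1 has a short isoform, ended by ordinary cleavage and polyadenylation, and a long isoform made by reading through that end. The 3′ ends of long NEAT1 and of MALAT1 carry no poly(A) tail: RNase P cuts after a genome-encoded A-rich tract, which folds back on U-rich stretches into a triple helix, and the downstream piece of MALAT1 becomes a small tRNA-like RNA called mascRNA.

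The sequences at these ends are shown because the 3′ end tells short from long NEAT1, and because long NEAT1 and MALAT1 end in the same way. The first is the region where short NEAT1 ends, with the polyadenylation hexamer AATAAA and each TGTA in capitals. TGTA is the DNA spelling of UGUA, the element bound by the cleavage factor CFIm. The others are the 100 bases that end at the A-rich tract of long NEAT1 and of MALAT1, with AAAAAGCAAAA in capitals, the longest stretch (11 bases) that ends long NEAT1 and also stands in MALAT1. All are on the plus strand of GRCh38, from GENCODE release 29 transcripts, at chr11:65426373-65426532, chr11:65445441-65445540 and chr11:65506017-65506116.
NEAT1 short isoform end: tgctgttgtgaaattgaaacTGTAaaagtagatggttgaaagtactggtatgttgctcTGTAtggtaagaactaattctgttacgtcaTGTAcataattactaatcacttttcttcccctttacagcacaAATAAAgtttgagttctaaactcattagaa
NEAT1 long isoform end: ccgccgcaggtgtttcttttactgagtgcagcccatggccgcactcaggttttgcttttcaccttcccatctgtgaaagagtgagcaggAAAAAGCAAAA
MALAT1 region of the A-rich tract: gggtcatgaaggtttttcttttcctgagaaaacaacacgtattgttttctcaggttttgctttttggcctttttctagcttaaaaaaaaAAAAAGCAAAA
The short NEAT1 window was placed around the AATAAA nearest the last annotated end of the shorter transcripts. It therefore holds that hexamer by construction, and its presence is not a result. The window held 1 AATAAA and 3 TGTA on the transcribed strand, and 0 AATAAA and 2 TGTA on the other. Of 142 windows of 160 bases along long NEAT1, 5.63% held AATAAA on the transcribed strand (18.3% on either strand) and 60.6% held TGTA (74.6% on either strand), and 9.15% held 3 or more TGTA. The motifs do not overlap each other. AAAAAGCAAAA, searched on the transcribed strand, stood in the last 100 bases of 95 of 206694 transcripts (0.046%), and anywhere in 903. The printed MALAT1 copy ends at base 65506116, and the transcript that spans nearly all of MALAT1 ends at base 65506469. That copy is therefore outside the last 100 bases, and the 0.046% does not describe it. The longest MALAT1 transcript held the stretch 2 times. The stretch was chosen because both genes hold it, so these counts do not measure how unusual the match is. In the MALAT1 annotation the tract ends at the base before mascRNA, a gene of 57 bases that had 0 counts in all 6 libraries. MALAT1 transcripts cover the same bases on the same strand, and the authors' estimation divided shared reads. The 0 therefore does not show that mascRNA was absent. A match of letters is a description of the window and not evidence of use.

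Expected counts summed to between 234035407 and 625892507 per library, with replicate 1 of each group deepest (546126805 in DMSO). Replicate 1 stood apart in both groups: 4.60% of tested genes were at least 1.5-fold above the mean of replicates 2 and 3 in both, and its isoform shares differed for several of the genes described here. Results that rest on it are given without it as well. Of 7 markers listed for colorectal epithelium, 5 were at 1 TPM or more in every library: EPCAM, KRT8, KRT18, KRT19 and CDH1. The others were near 0, VIL1 at 0.02 TPM at most and CDH17 at 0.05 TPM at most. The sum of the 7 ran from 1724 to 2374 TPM in DMSO and from 2207 to 2646 TPM in auxin, and it describes the 5 genes. Of 6 markers of other cell types, 0 reached that level in all libraries, 1 was at 0 throughout, and their sum ran from 1.34 to 2.67 TPM in DMSO and from 0.58 to 1.41 TPM in auxin.

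TPM, which divides by transcript length, lets the levels of different genes be compared. The TPM of a gene still depends on how reads were divided among annotated transcripts of different length. MALAT1-202, which spans nearly all of MALAT1, was at 324 TPM on average in DMSO, although it held 87.3% of MALAT1 expected counts there. NONO-210, annotated without a coding sequence, was at 382 TPM. The order and ranks given here rest on that division. In the DMSO libraries MALAT1 was at 1142 ± 623 TPM (SD, n = 3) and NONO at 583 ± 154 TPM. SFPQ followed at 104 ± 15.4, TARDBP at 84.9 ± 23.0 and RBM14 at 59.4 ± 10.3 TPM. PSPC1 was at 18.4 ± 1.52 TPM and NEAT1 at 14.4 ± 5.77 TPM. MALAT1 was thus the 83rd gene by mean TPM over the 6 libraries and NEAT1 the 6110th. Neighbours in this order whose ranges over the DMSO libraries overlapped were MALAT1 and NONO, SFPQ and TARDBP, TARDBP and RBM14, and PSPC1 and NEAT1. Within each of the 3 DMSO libraries the order nonetheless held for all of these but PSPC1 and NEAT1. In DMSO replicate 1 NEAT1 was above PSPC1 (20.8 against 19.6 TPM). MALAT1 held 0.186%, 0.0871% and 0.0703% of all TPM in DMSO replicates 1, 2 and 3, and 0.176%, 0.0801% and 0.0898% in the auxin replicates. The groups overlapped (difference 0.00106 percentage points, two-sided exact permutation p = 0.9, where 3 against 3 cannot go below 0.1), and replicate 1 was the high library in both. NEAT1 held 0.00144% ± 0.000576 of all TPM in DMSO and 0.00110% ± 0.000334 in auxin (exact permutation p = 0.5, n = 3 a group).

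All 7 genes passed the filter on low counts. After auxin, 4 of the 7 were higher, 0 were lower and 3 did not pass the test, with edgeR's quasi-likelihood test over 19725 genes and an adjusted p below 0.05 as the threshold. Genes called were common in this comparison: 52.3% of all tested genes, 25.4% higher and 26.9% lower. The 4 genes that rose were SFPQ, PSPC1, RBM14 and TARDBP, and the 2 long RNAs and NONO did not pass. The median log2 fold change was 0.28 over the 7 genes and 0.02 over all genes tested. CPM, the rounded counts after TMM scaling for library size, compare 1 gene between libraries and not genes with each other.

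**Figure D1:**
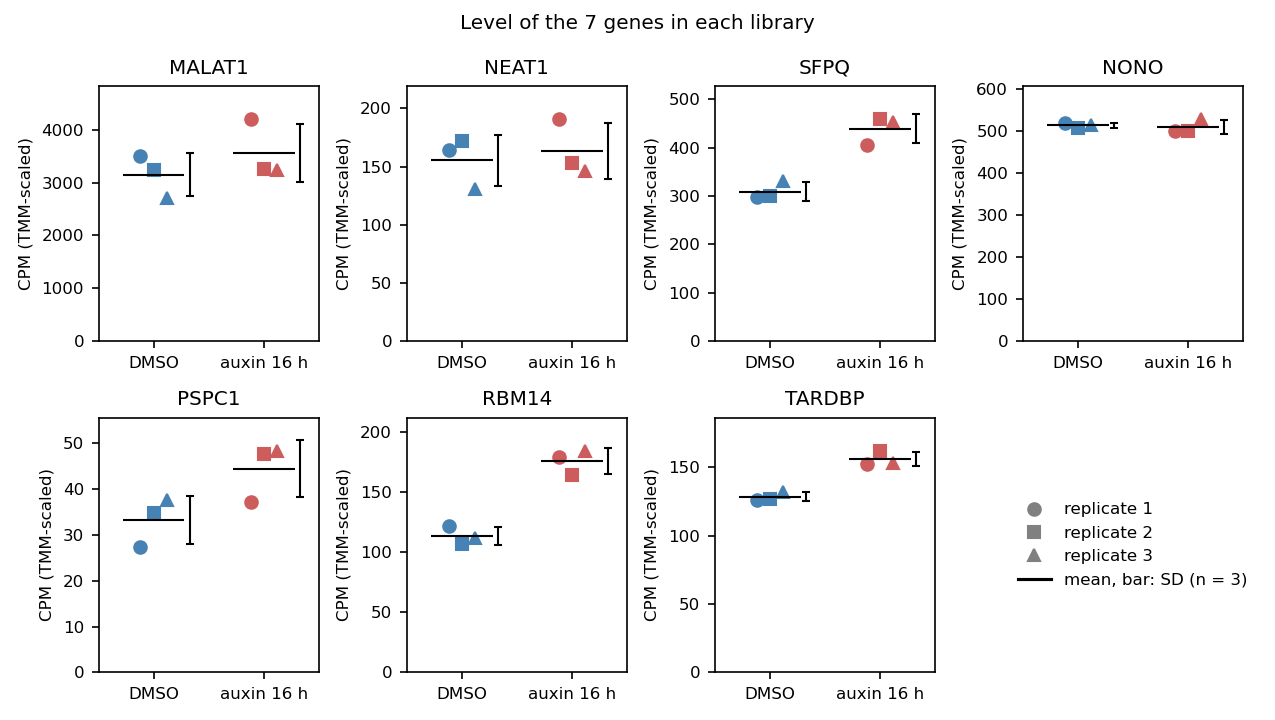
TMM-scaled CPM of the 7 genes in each library, 1 panel per gene with its own axis from 0; points are the 3 DMSO and 3 auxin libraries, horizontal lines the group means and error bars the SD (n = 3). SFPQ, RBM14 and TARDBP have auxin libraries that all lie above the DMSO libraries, PSPC1 overlaps narrowly (37.2 against 37.5), and MALAT1, NEAT1 and NONO overlap.

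MALAT1 (chr11:65497688-65506516, plus strand) is an abundant nuclear RNA retained in speckles. It had 3507, 3236 and 2713 CPM in DMSO replicates 1, 2 and 3 and 4202, 3253 and 3246 CPM in the auxin replicates. The groups overlapped, with replicate 1 the highest of each. The log2 fold change was 0.18 (SE 0.14, 95% interval -0.15 to 0.51, edgeR quasi-likelihood adjusted p = 0.320). It ranged from 0.047 without auxin replicate 1 to 0.26 without DMSO replicate 1, and was 0.13 in replicates 2 and 3 alone (edgeR adjusted p = 0.167). With the replicate number as a block the same log2 fold change of 0.18 passed the test (edgeR adjusted p = 0.0140), beside 69.9% of all genes called in that fit, 35.5% higher and 34.4% lower. NEAT1 (chr11:65422774-65445540, plus strand), the scaffold of paraspeckles, had 164, 172 and 131 CPM in DMSO and 191, 153 and 146 CPM in auxin. Its groups overlapped too, and the pairs did not share a direction. The log2 fold change was 0.07 (SE 0.14, 95% interval -0.25 to 0.39, edgeR adjusted p = 0.693). Its sign was not stable: the log2 value was -0.053 when DMSO replicate 3 was left out, -0.051 when auxin replicate 1 was, -0.014 in replicates 2 and 3 alone, and -0.33 on log2(TPM + 1). MALAT1 TPM divided by NEAT1 TPM was 89.1, 67.6 and 73.1 in DMSO and 119, 87.0 and 100.2 in auxin. This ratio was higher in auxin in 3 of 3 pairs, but the groups overlapped (exact permutation p = 0.2, n = 3 a group).

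Of the DBHS genes, SFPQ (chr1:35176378-35193148, minus strand), a splicing and transcription factor needed to keep NEAT1 stable, had 297, 299 and 331 CPM in DMSO and 405, 459 and 454 CPM in auxin. Every auxin library was above every DMSO library. The rise was 1.42-fold (log2 0.51, SE 0.08, edgeR adjusted p = 0.00138). PSPC1 (chr13:19674752-19783019, minus strand), paraspeckle component 1, had 27.4, 34.8 and 37.5 CPM in DMSO and 37.2, 47.8 and 48.4 CPM in auxin. Auxin replicate 1 lay just under DMSO replicate 3, and within each replicate number auxin was higher. The rise was 1.34-fold (log2 0.42, SE 0.14, edgeR adjusted p = 0.0445). The call was lost without any 1 of 4 libraries: the edgeR adjusted p was 0.0941 without DMSO replicate 1, 0.0916 without DMSO replicate 2, 0.132 without auxin replicate 2 and 0.139 without auxin replicate 3. With the replicate block the edgeR adjusted p was 7.72e-06, but that fit called 69.9% of all genes. The libraries do not show that replicates 2 and 3 are paired by number. NONO (chrX:71283192-71301168, plus strand), the most abundant DBHS gene here, had 519, 506 and 514 CPM in DMSO and 500.2, 499.7 and 528 CPM in auxin. The libraries overlapped, and the log2 difference was -0.01 (SE 0.06, 95% interval -0.15 to 0.12, edgeR adjusted p = 0.889), an interval that leaves out the change of SFPQ.

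The DBHS proteins act as pairs, so the proportions of their genes on the TPM scale are given as well. These are proportions of RNA and not of protein. NONO-210, a transcript annotated without a coding sequence, held 64.3% to 69.0% of NONO TPM, so the shares do not measure coding RNA. SFPQ made up 13.3%, 15.0% and 16.4% of the summed TPM of SFPQ, NONO and PSPC1 in DMSO and 17.9%, 20.8% and 18.7% in auxin. NONO made up 84.5%, 82.2% and 80.6% in DMSO and 79.2%, 75.6% and 78.0% in auxin. For both shares the groups did not overlap: that of SFPQ was 4.23 percentage points higher and that of NONO fell by 4.79 points, each at the exact permutation p of 0.1 that is the smallest 3 against 3 can give. The sum itself was 705 ± 170.0 TPM in DMSO and 675 ± 72.5 TPM in auxin (exact permutation p = 0.9, n = 3 a group).

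RBM14 (chr11:66616582-66627347, plus strand) rose most among the 7 genes. It had 122, 107 and 112 CPM in DMSO and 179, 164 and 185 CPM in auxin, with no overlap. The rise was 1.55-fold (log2 0.63, SE 0.07, edgeR adjusted p = 0.000367). TARDBP (chr1:11012344-11026420, plus strand) had 126, 126 and 132 CPM in DMSO and 153, 162 and 153 CPM in auxin. It did not overlap either, and its rise was the smallest of the 4 called, 1.21-fold (log2 0.28, SE 0.06, edgeR adjusted p = 0.00430). Without replicate 1 of either group, the log2 fold changes were 0.53 for SFPQ, 0.41 for PSPC1, 0.67 for RBM14 and 0.28 for TARDBP, and all 4 passed (largest edgeR adjusted p = 0.00108). Non-overlapping groups were found for 60.3% of all tested genes, 30.0% with auxin above and 30.4% with auxin below.

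RBM14 shares its start with a readthrough gene, RBM14-RBM4, over 10722 bases of the same strand. The readthrough gene was at 1.61 to 2.56 CPM in DMSO and 1.14 to 2.12 CPM in auxin (log2 -0.33, SE 0.28, edgeR adjusted p = 0.359), and its counts are uncertain, with a posterior SD of up to 9.80% of the count. With the replicate block it was lower (log2 -0.34, edgeR adjusted p = 0.0169). RBM4, the downstream gene and itself an RNA-binding splicing regulator, had 52.2, 50.8 and 50.7 CPM in DMSO and 97.5, 92.8 and 95.1 CPM in auxin. It rose 1.86-fold (log2 0.89, SE 0.05, edgeR adjusted p = 1.21e-05). Reads over shared exons were divided between these genes by the authors' estimation. Other genes overlapping the 7 were at 0.0698 CPM on average or less, among them AL109811.4, which spans 13759 bases of TARDBP on the same strand, and PSPC1-AS2 opposite PSPC1.

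**Figure D2:**
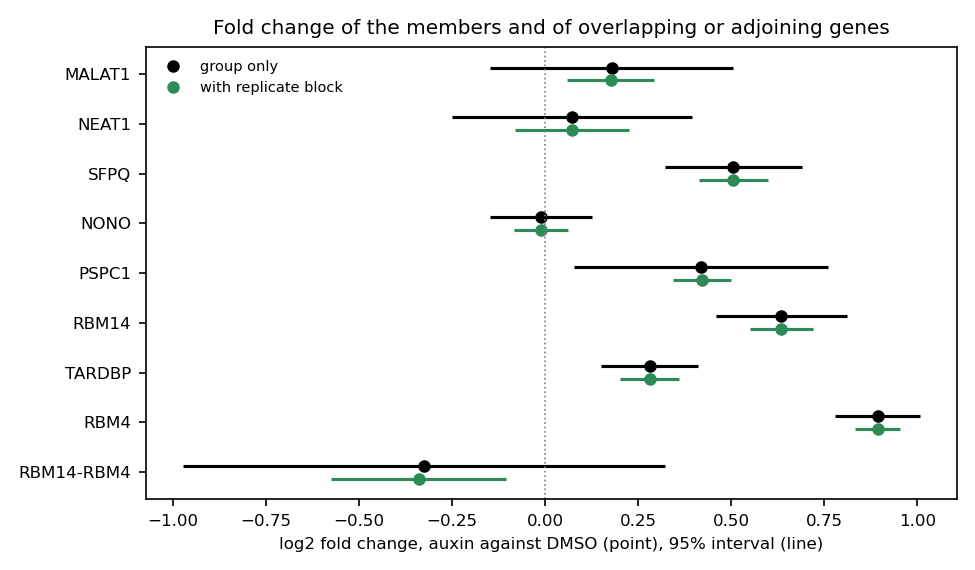
Log2 fold change (auxin minus DMSO) of the 7 genes with 95% intervals, and of RBM4 and RBM14-RBM4, in edgeR with the group only and with the replicate block. The intervals of SFPQ, PSPC1, RBM14 and TARDBP lie to the right of 0 in both fits, and those of NONO and NEAT1 span 0 in both.

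The calls depended on the scale. On log2(TPM + 1) with limma-trend, 0 of the 7 genes passed, and 20.0% of all genes did, 4.92% higher and 15.0% lower: the log2 difference was 0.32 for SFPQ (limma adjusted p = 0.139), 0.23 for PSPC1 (0.247), 0.48 for RBM14 (0.0657) and 0.13 for TARDBP (0.727). Auxin over DMSO TPM within replicates 1, 2 and 3 was 1.11, 1.40 and 1.26 for SFPQ, 1.08, 1.27 and 1.20 for PSPC1, and 1.23, 1.44 and 1.56 for RBM14. For TARDBP it was 1.00, 1.17 and 1.12. These 4 genes were therefore at or above their DMSO partner in all 3 pairs on the TPM scale also. NEAT1 was below in all 3 (0.714, 0.715 and 0.930), and MALAT1 was mixed (0.950, 0.920 and 1.28).

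The annotated transcripts of NEAT1 moved relative to one another although its total did not pass the test. The long isoform is annotated as the single-exon transcript NEAT1-202 (chr11:65422798-65445540, 22743 bases). The 7 shorter transcripts all have 2 or 3 exons. The unspliced short isoform has no entry of its own (0 of the 7 have a single exon), so its reads match NEAT1-202, and the split was made by the authors' estimation. The values therefore compare the full-length entry with spliced shorter transcripts, and the balance of unspliced short and long NEAT1 cannot be read from them. NEAT1-202 made up 40.7%, 47.6% and 50.6% of NEAT1 TPM in DMSO and 56.9%, 57.0% and 59.6% in auxin. All 3 auxin libraries were above all 3 DMSO libraries, by 11.6 percentage points on average (46.3 ± 5.06 against 57.9 ± 1.55, SD, n = 3). The exact permutation p was 0.1, the smallest this design allows. Of NEAT1 expected counts, which follow length, it held 92.7%, 93.8% and 94.8% in DMSO and 97.4%, 97.1% and 97.3% in auxin, again without overlap. In limma's test of the log2 ratio of a transcript's counts to the rest of its gene, over 76312 transcripts, the ratio of NEAT1-202 to the shorter transcripts rose by 1.22 (SE 0.16, adjusted p = 0.00812). This call held in each of 10 alternatives, with limma adjusted p from 0.00443 to 0.0452. Transcripts called in limma's test were 10.4% of all tested, 6.31% with a higher and 4.08% with a lower share. None of the alternatives left NEAT1-207 and NEAT1-208 out of the shorter transcripts. NEAT1-207 had 0 expected counts in every auxin library. NEAT1-208 had 1393, 1347 and 627 expected counts in DMSO and 0, 233 and 163 in auxin. The ratio without these entries was not tested, so its rise cannot be read apart from them.

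**Figure D3:**
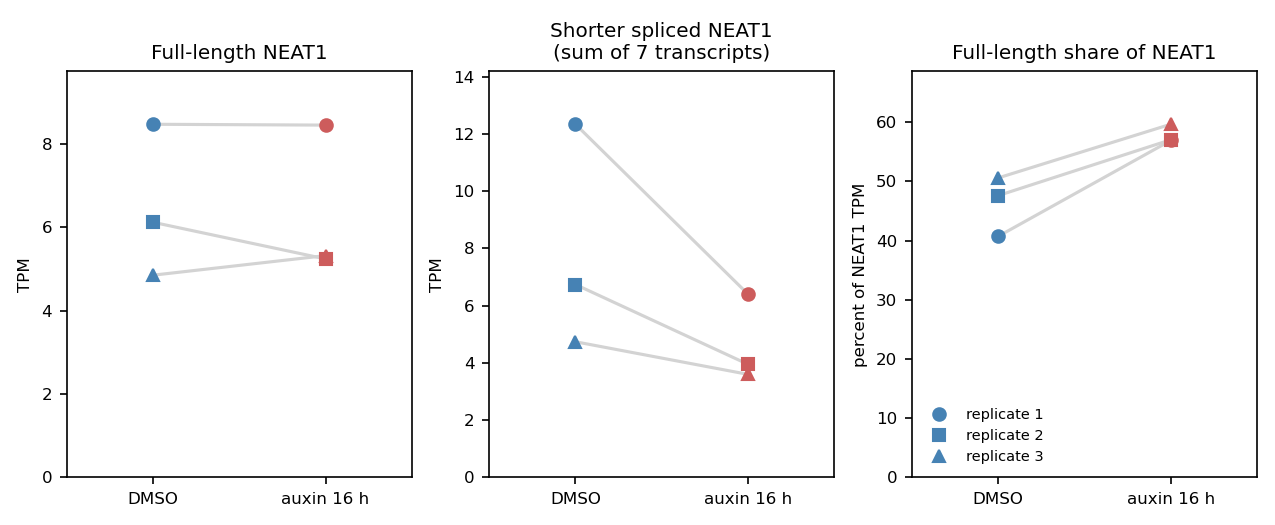
NEAT1 transcripts by library: TPM of NEAT1-202, summed TPM of the 7 shorter transcripts, and NEAT1-202 as a percentage of NEAT1 TPM; points are libraries and grey lines join the same replicate number. The full-length share lies between 40.7% and 50.6% in DMSO and between 56.9% and 59.6% in auxin, while the TPM of NEAT1-202 overlaps. The shorter transcripts include NEAT1-207, which had 0 expected counts in every auxin library.

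The level of NEAT1-202 itself did not separate the groups. It had 8.47, 6.12 and 4.85 TPM in DMSO and 8.45, 5.24 and 5.32 TPM in auxin, which overlap (exact permutation p = 0.9, n = 3 a group). Its counts gave a log2 fold change of 0.14 (SE 0.13, 95% interval -0.17 to 0.45, edgeR adjusted p = 0.525). The shorter transcripts together had 12.1, 10.6 and 6.84 CPM in DMSO and 4.99, 4.48 and 4.01 CPM in auxin. Their groups did not overlap, and the mean went from 9.82 ± 2.69 to 4.49 ± 0.494 CPM (exact permutation p = 0.1, the smallest possible). The sum includes NEAT1-207, with 0 expected counts in every auxin library. It also includes NEAT1-208, with 1393, 1347 and 627 expected counts in DMSO and 0, 233 and 163 in auxin. By level, NEAT1-206 (log2 -0.05, edgeR adjusted p = 0.937) and NEAT1-205 (log2 -0.65, edgeR adjusted p = 0.279) did not pass. The sum without NEAT1-207 and NEAT1-208 was not tested, so its fall cannot be read apart from them. On the TPM scale the sum of the shorter transcripts was 12.3, 6.74 and 4.74 in DMSO and 6.40, 3.95 and 3.60 in auxin. There the groups overlapped (exact permutation p = 0.2, n = 3 a group), since replicate 1 was high in both, and auxin was lower in 3 of 3 pairs.

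NEAT1-207 (chr11:65423125-65426499, 2 exons) had 2288, 513 and 344 expected counts in DMSO replicates 1, 2 and 3 and 0 in each auxin library, where 3 counts would be at most 0.00926% of NEAT1 counts. It passed the filter on low counts only through the DMSO libraries, so no test is given for it, and the deposited posterior SD reached 341 counts. NEAT1-208 (chr11:65423096-65426513, 3 exons) went from 5.00%, 11.4% and 7.61% of NEAT1 TPM to 0%, 3.05% and 2.47%, without overlap, and did not pass (limma adjusted p = 0.363). In replicates 2 and 3 alone it was lower by level (log2 -2.04, edgeR adjusted p = 0.0372) and by share (log2 -1.99, limma adjusted p = 0.0457). Both end within the first of the printed sequences, as does NEAT1-205, whose share was 14.1%, 14.2% and 11.1% in DMSO and 10.1%, 11.4% and 7.51% in auxin (limma adjusted p = 0.217). NEAT1-206, which ends upstream at base 65424967, had 32.5%, 22.9% and 26.4% in DMSO and 32.9%, 28.5% and 30.0% in auxin (limma adjusted p = 0.859).

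Over the whole gene set, 62 of the 99 transcripts passed the filter on low counts. By level, 2 were higher and 1 was lower in edgeR, and by share, 1 was higher (NEAT1-202) and 1 lower in limma. The lower one is NEAT1-207 in both tests, and nothing is read from it, since it had passed the filter through DMSO alone. NEAT1-207 is also among the shorter transcripts in the ratio of NEAT1-202. For comparison, 19.7% of all tested transcripts were called by level, 8.43% higher and 11.2% lower. SFPQ-201, the main coding transcript of SFPQ, had 99.3, 66.9 and 77.0 TPM in DMSO and 111, 96.4 and 102 TPM in auxin. The TPM of the groups overlapped through DMSO replicate 1, and its counts rose (log2 0.53, SE 0.10, edgeR adjusted p = 0.0140). The call was lost without DMSO replicate 2 (adjusted p = 0.0667), auxin replicate 2 (0.0571) or auxin replicate 3 (0.0582) in edgeR. PSPC1-201, a coding transcript, had 6.14, 5.65 and 5.35 TPM in DMSO and 8.35, 7.55 and 9.01 TPM in auxin, with no overlap. Its counts rose too (log2 0.71, SE 0.17, edgeR adjusted p = 0.0357), and the call was lost without any 1 of DMSO replicates 1 (0.0752), 2 (0.0734) and 3 (0.0956) and auxin replicates 2 (0.125) and 3 (0.130). Its share of PSPC1 TPM went from 31.3%, 33.8% and 28.3% to 39.2%, 35.6% and 39.8%, which did not pass (limma adjusted p = 0.144).

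Transcripts annotated as targets of nonsense-mediated decay, the pathway that removes RNAs with early stop codons, were a large part of PSPC1. They made up 54.2%, 52.0% and 50.0% of its TPM in DMSO and 48.5%, 46.6% and 48.4% in auxin. The groups did not overlap (exact permutation p = 0.1, the smallest possible). For TARDBP, whose protein represses its own RNA, that share was 39.2%, 27.1% and 21.6% in DMSO and 38.2%, 23.2% and 22.3% in auxin. For SFPQ it was 6.80%, 17.7% and 18.8% in DMSO and 7.27%, 17.7% and 15.2% in auxin. In both genes replicate 1 of each group stood apart from the others, and the groups overlapped.

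For RBM14, MALAT1 and TARDBP, replicate 1 of both groups stood apart in the shares of the transcripts. RBM14-201 made up 66.8% and 63.7% of RBM14 TPM in DMSO and auxin replicate 1 and 39.3% to 40.8% in the other 4 libraries. MALAT1-202, the transcript that spans nearly all of the gene, made up 23.0% and 23.9% of MALAT1 TPM in replicate 1 and 32.0% to 36.3% in the others. Of MALAT1 expected counts, which follow length, it held 82.5% to 90.2%. TARDBP-230 ranged from 32.5% to 47.1% of TARDBP TPM, with its 2 lowest values in replicate 1. The 2 largest transcripts of NONO showed no such split. NONO-210, a 3-exon transcript annotated without a coding sequence, held 64.3% to 69.0% of its TPM, and the coding NONO-201 held 22.3% to 25.5%. By expected counts the order was reversed, with 14.3% to 16.7% in NONO-210 and 67.1% to 71.3% in NONO-201. The split between them thus depends on the scale. A smaller transcript, NONO-212, did set replicate 1 apart, with 4.09% of NONO TPM in DMSO and 3.27% in auxin. In the other 4 libraries it held at most 0.0654%. With the replicate block, both RBM14 transcripts passed by level (edgeR adjusted p = 0.0061 for RBM14-201 and 0.0023 for RBM14-202), and 8 transcripts of the 7 genes were higher and 4 lower in all. In that fit 27.0% of all tested transcripts were called, 12.8% higher and 14.1% lower.

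**Figure D4:**
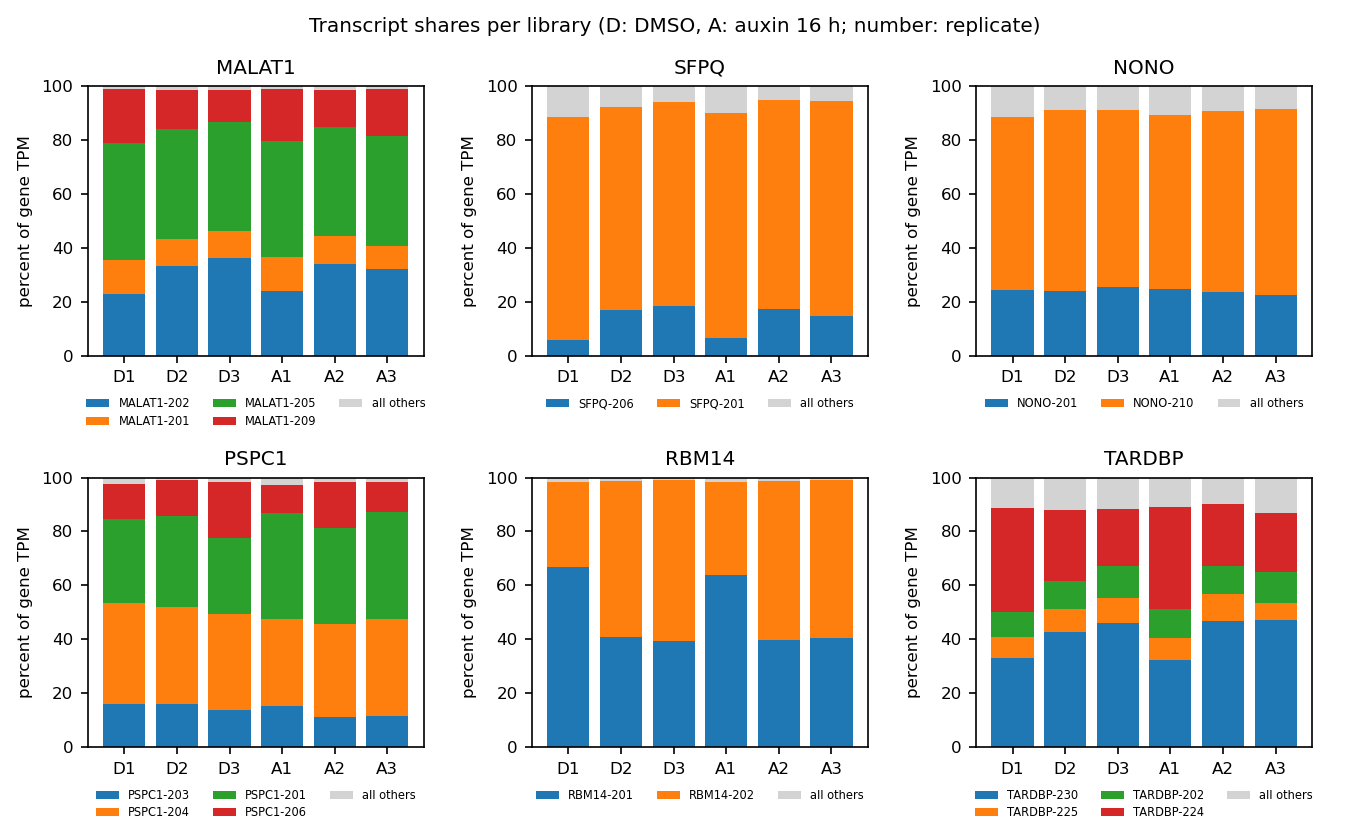
Stacked bars of the percentage of gene TPM held by each transcript with a mean share of at least 5% in either group, for MALAT1, SFPQ, NONO, PSPC1, RBM14 and TARDBP; each bar is 1 library (D, DMSO; A, auxin; number, replicate) and grey is all other transcripts. D1 and A1 differ from the other libraries for RBM14, TARDBP, MALAT1 and SFPQ, and the 2 NONO transcripts drawn are alike in all 6.

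Other proteins reported in paraspeckles moved in both directions. The list holds 31 genes in 32 annotated entries, because MATR3 has 2 overlapping ones. Of 31 entries tested, 11 were higher, 7 lower and 13 neither in edgeR, and the median log2 fold change was 0.05, beside 0.02 over all genes, of which 25.4% were higher and 26.9% lower. The largest rises were in ZC3H6, a zinc finger protein, at 0.76 (19.6 ± 3.23 to 33.1 ± 2.29 CPM, SD, n = 3), in RBM3, a cold-induced RNA-binding protein, at 0.69, and in FAM98A at 0.68. The largest falls were in AKAP8L at -0.56 (32.2 ± 2.70 to 21.8 ± 0.72 CPM), SS18L1 at -0.50 and HNRNPA1 at -0.48. HNRNPA1, a splicing repressor, only just passed (edgeR adjusted p = 0.0491), its libraries overlapped, and it failed in edgeR without DMSO replicate 2 (adjusted p = 0.128), DMSO replicate 3 (0.131), auxin replicate 1 (0.0929), auxin replicate 2 (0.0859) or auxin replicate 3 (0.0559). SS18L1 (edgeR adjusted p = 0.0267) failed without DMSO replicate 1 (0.0551), DMSO replicate 2 (0.0551), auxin replicate 2 (0.0893) or auxin replicate 3 (0.0916). The count of higher entries was 7 without DMSO replicate 1 and 6 without DMSO replicate 2, auxin replicate 2 or auxin replicate 3. The count of lower entries was 3 without DMSO replicate 2, 4 without DMSO replicate 3, 2 without auxin replicate 2 and 4 without auxin replicate 3. On the TPM scales the calls of ZC3H6 (largest limma adjusted p = 0.0736), FAM98A (0.103) and SS18L1 (0.413) were lost, and with upper-quartile factors those of SS18L1 and HNRNPA1.

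Some genes known to act on which NEAT1 isoform is made are given here although they were singled out after their values were seen. They are not a complete list of such genes, and no cause is read from their directions. Other RNA-binding proteins were not considered with them, among them TARDBP, which rose (log2 0.28, edgeR adjusted p = 0.00430). NUDT21 and CPSF6 form CFIm, which binds UGUA and favours the short isoform, and CPSF7 is the alternative large subunit, while HNRNPK competes with CFIm at this end. NUDT21 had 409.8, 491 and 505 CPM in DMSO and 299, 380 and 388 CPM in auxin. No auxin library reached a DMSO library, and the log2 fold change was -0.40 (edgeR adjusted p = 0.0321). It failed without DMSO replicate 2 (0.0883), DMSO replicate 3 (0.0910), auxin replicate 1 (0.0533) or auxin replicate 2 (0.0534). HNRNPK had 514, 624 and 639.7 CPM in DMSO and 659.9, 787 and 773 CPM in auxin. Its groups did not overlap either (log2 0.32, edgeR adjusted p = 0.0435), and it failed without DMSO replicate 1 (0.116), 2 (0.0863) or 3 (0.0532) or auxin replicate 2 (0.136) or 3 (0.130). CPSF6 was at 134 ± 8.46 CPM in DMSO and 125 ± 4.04 in auxin (log2 -0.10, edgeR adjusted p = 0.237), and CPSF7 at 132 ± 7.05 and 149 ± 11.8 (log2 0.17, edgeR adjusted p = 0.0968). With the replicate block both passed, CPSF6 lower (0.0294) and CPSF7 higher (0.00134), and CPSF6 was at 0.02 with upper-quartile factors. On the TPM scales HNRNPK did not pass (largest limma adjusted p = 0.311), and NUDT21 did not pass with upper-quartile factors or on log2(TPM + 1). The part these genes or TARDBP had in the NEAT1 transcript shares was not tested.

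Among the enzymes and binders of the MALAT1 and long NEAT1 3′ ends, of 15 genes tested, 8 were higher, 3 lower and 4 neither in edgeR, with a median log2 fold change of 0.26, beside 25.4% higher, 26.9% lower and a median of 0.02 over all genes. ELAC2, the nuclease (RNase Z) that trims the 3′ end of mascRNA and of tRNAs, had 130.5, 138 and 150.3 CPM in DMSO and 46.4, 47.9 and 52.0 CPM in auxin. POP5, a protein subunit of RNase P, had 19.6, 16.9 and 17.9 CPM in DMSO and 4.91, 3.95 and 4.41 CPM in auxin. Both fell far outside the spread of their libraries, with log2 fold changes of -1.52 (SE 0.08, edgeR adjusted p = 8.91e-06) and -2.03 (SE 0.11, edgeR adjusted p = 1.21e-05). POP7 fell by 0.26 (edgeR adjusted p = 0.0261) and failed without DMSO replicate 3 (0.0943), auxin replicate 1 (0.0590) or auxin replicate 2 (0.0889). Among those that rose, TRNT1, which adds CCA to mascRNA and tRNAs, went up by 1.10, RPP40, an RNase P subunit, by 1.05, and METTL16, which binds the MALAT1 triple helix, by 0.66. METTL16 (largest limma adjusted p = 0.152) and POP7 (0.159) did not pass on the TPM scales, nor POP7 with upper-quartile factors. MALAT1 itself did not pass the test without the replicate block.

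NEAT1 and MALAT1 are close neighbours on chromosome 11, in a gene-dense region. Of 42 annotated genes within 250 kb of the interval that spans the pair, 26 were tested, 3 were higher and 16 lower in edgeR, and the median log2 fold change was -0.996 beside 0.02 over all genes, of which 25.4% were higher and 26.9% lower. Within 100 kb 1 was higher and 7 lower of 12 tested, and within 500 kb 6 were higher and 30 lower of 54. EHBP1L1 had 41.0, 53.1 and 51.9 CPM in DMSO and 5.46, 6.41 and 6.81 CPM in auxin. EHBP1L1 fell by 2.97 on the log2 scale, and SIPA1, a GTPase-activating protein for Rap, fell by 3.39, each without overlap. Between -2.14 and -1.02 were AP003068.2, RNASEH2C, the protease gene CAPN1, FAM89B, SLC25A45, TIGD3, FRMD8, PCNX3, AP000769.1 and the acetyltransferase gene KAT5. Smaller falls were found for MAP3K11 at -0.98, POLA2 at -0.80 and RELA, an NF-kB subunit, at -0.39. RELA (edgeR adjusted p = 0.0208) failed without auxin replicate 2 (0.0723) or auxin replicate 3 (0.0777). The 3 that rose were CDC42EP2 at 0.90, AP001362.2 at 0.89 and DPF2 at 0.50. On the TPM scales these 3 did not pass, with largest limma adjusted p of 0.0829, 0.108 and 0.298, and the calls of KAT5 (0.286, with a log2 value of -0.42), MAP3K11 (0.132), RELA (0.684) and, on log2(TPM + 1) only, PCNX3 (0.0579) were lost too. RELA also failed with upper-quartile factors. NEAT1 at 0.07 and MALAT1 at 0.18 thus stood among neighbours of which most were lower.

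**Figure D5:**
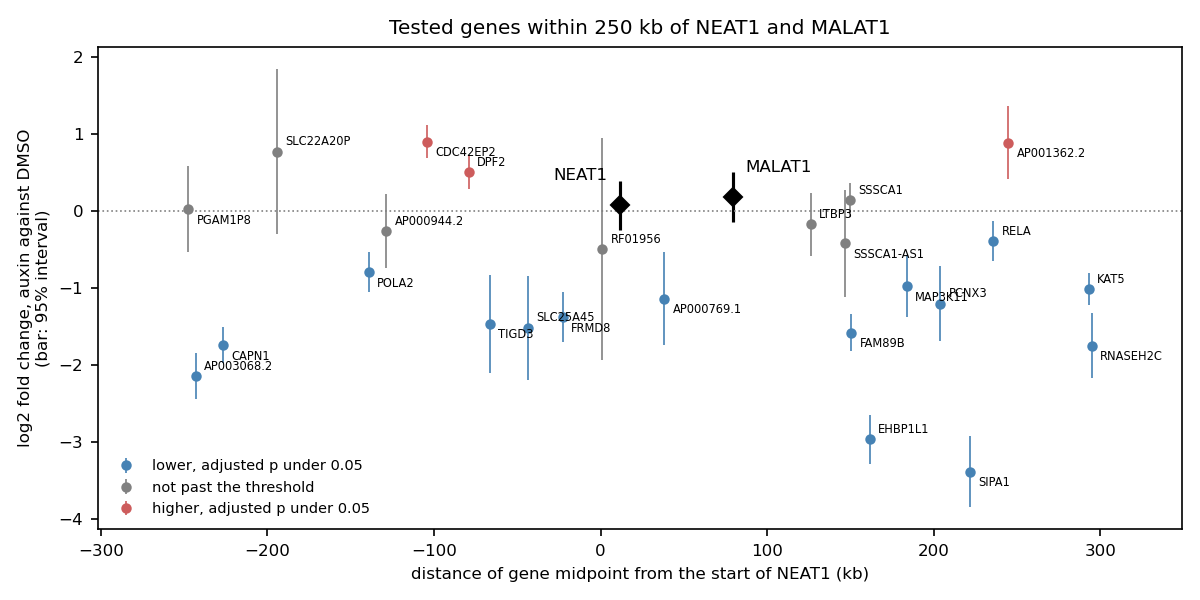
Log2 fold change (auxin minus DMSO, edgeR) of tested genes (all but 1) within 250 kb of the NEAT1 to MALAT1 interval, against the distance in kb of the gene's midpoint from the start of NEAT1, with 95% intervals; red and blue points passed an adjusted p under 0.05, grey points did not, and black diamonds are NEAT1 and MALAT1. SIPA1 (-3.39) and EHBP1L1 (-2.97) lie lowest among the genes drawn, and NEAT1 and MALAT1 lie near 0.

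The genes with the pattern most like MALAT1 over the 6 libraries, by Pearson correlation of log2 CPM among 8873 genes with a mean of at least 10 CPM, were TARBP1 (0.993), WDR27 (0.990) and MIR222HG (0.989), and 89 genes exceeded 0.9. For NEAT1 they were PGPEP1 (0.995), MOB3A (0.990) and RREB1 (0.947), and 20 genes exceeded 0.9. The 6 libraries share depth and replicate structure, and MALAT1 and its closest genes were all highest in auxin replicate 1 and lowest in DMSO replicate 3. These correlations are a description only.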

How the data were processed

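Per the file headers, the deposited tables of each library give an expected count (an estimated count of reads that need not be whole), TPM, effective lengths and posterior standard deviations, per gene and per transcript. The authors' TPM values are scaled to 1 total per library and for length, and the expected counts are not normalized. The submitters' processing notes name bcl2fastq 2.20, STAR, DESeq2 and GRCh38 (hg38) without roles. The counting tool and strand setting are not given in the sources used here. Per the labels' protocols, rRNA-depleted total RNA (RIN 10) was made into stranded libraries and sequenced as read pairs.

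Of 59526 gene IDs, 58780 matched GENCODE release 29. The remaining IDs took at most 0.00111% of counts and were left out. Expected counts were rounded and tested with edgeR 4.0.16 in R 4.3.3 (filterByExpr, TMM, quasi-likelihood F test, Benjamini-Hochberg over all genes or transcripts, adjusted p under 0.05). Transcript shares were tested with limma 3.58.1 on log2 ratios of counts with 0.5 added. Intervals are 95%. Values per library were compared by two-sided exact permutation over 20 assignments. Alternatives used DESeq2 1.42.0, other factors and filters, limma-trend on TPM (log2 after adding 1 or 0.1), and left-out libraries. The scripts were tested on simulated data, in which 199 of 19458 genes were changed. There the gene test recovered 52.0% of 2-fold and 28.3% of 1.5-fold changes. A gene that did not pass is therefore not shown to be unchanged. Far more genes were called in the data themselves, so these rates need not hold there.

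The labels number the libraries as biological replicates. Deviations from the group means correlated at 0.651, 0.265 and 0.276 between libraries of the same number over 19725 genes. DMSO replicate 3 correlated more with auxin replicate 2 (0.312), and DMSO replicate 2 with auxin replicate 3 at 0.180. The correlations thus set replicate 1 apart and do not show that replicates 2 and 3 are paired by number. The numbers were taken as pairs in the replicate block and where pairs are named. The main tests used the group only. Limits from a count of 0 use 3 counts. They cover counting error alone, because the reads carry no molecular identifiers and need not be separate molecules.

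Genes named are the 7 members, their transcripts at 5% of gene TPM or more, overlapping genes and RBM4, the 3 called genes with the largest change each way per list, every called neighbour but 1, which is not reported here, and the 3 genes most correlated with MALAT1 and with NEAT1. NUDT21, CPSF6, CPSF7 and HNRNPK were added after their values were seen. The rule for the 7 members uses no measured value, but members and lists were chosen with earlier results of these data known.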

Additional observations from a re-analysis of the deposited data

How the results depend on the processing

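SFPQ, PSPC1, RBM14 and TARDBP were above DMSO in each of 16 alternatives, and their calls were lost on the TPM scale. On log2(TPM + 1) and log2(TPM + 0.1) with limma-trend the log2 differences were 0.32 and 0.32 for SFPQ, 0.23 and 0.24 for PSPC1, 0.48 and 0.49 for RBM14 and 0.13 and 0.13 for TARDBP, so that 0 of the 7 genes were called. Leaving out 1 library gave 0.30 to 0.54 for PSPC1, 3 to 4 genes called, -0.053 to 0.15 for NEAT1 and -0.043 to 0.0046 for NONO. NEAT1 was also negative on TPM (-0.33 and -0.36) and in replicates 2 and 3 alone (-0.014), NONO was positive with upper-quartile factors (0.11) and in replicates 2 and 3 (0.0082), and CPSF6 was at 0.021 with upper-quartile factors, which put the median of all genes at 0.15. The replicate block called MALAT1 (0.18), 8 of the transcripts higher and 5 neighbours higher, and CPSF6, CPSF7 and RBM14-RBM4. The higher share of NEAT1-202 was 3.48 percentage points in counts. Of the 23 transcripts at 5% of gene TPM or more, those higher by level were 5 with upper-quartile factors, 4 with DESeq2, 1 without a filter, 5 in replicates 2 and 3, and 0 to 2 with 1 library left out. Of the same 23, those lower by level and by share were each 0 at 10 or more counts in every library, a filter that removes NEAT1-207 by its construction, and 2 in replicates 2 and 3. Of the other paraspeckle proteins, 2 were lower with upper-quartile factors, 1 was higher and 4 lower on either TPM scale, and 6 to 10 were higher and 2 to 6 lower with 1 library left out. On TPM, 2 genes of MALAT1 end processing and 0 neighbours were higher. Neighbours within 100 kb were 1 higher and 7 lower, and within 500 kb 6 and 30. For transcripts, replicates 2 and 3 alone were an alternative chosen after seeing the data. The cause of these shifts was not tested. With all libraries thinned to the smallest total, each of the 7 genes kept its direction and its side of the threshold. Transcript values rest on how the authors' estimation divided shared reads.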
